A study of Mus musculus with 32 samples.

Results

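Forskolin was added to an inhibitor of TGF-beta signalling in early mouse epidermal organoids, and gene expression was set against that of organoids kept in the inhibitor without forskolin. The comparison uses 6 of the 32 libraries of the series, chosen by their labels: 4 libraries of early organoids with forskolin and the inhibitor, and 2 of early organoids with the inhibitor alone. The organoids are 3-dimensional keratinocyte cultures started from the skin of Bl/6 mice, and early means passages 7 to 12, within 3 months of culture, with harvest on day 7. The inhibitor was in the medium of all 6 libraries, so forskolin is the difference that the labels give. The labels name no genotype, sex or age of the mice, no compound for the inhibitor and no dose for either agent. Unpassaged organoids (passage 0, day 7) gave 1 library of each medium, and these are set beside the early comparison without a test. The rest of the series holds organoids with forskolin and the growth factors Fgf10 or Fgf1, unpassaged organoids in other media, and epidermis and hair follicles taken from skin.

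Forskolin activates adenylyl cyclase, the enzyme that makes cyclic AMP (cAMP). Cyclic AMP activates protein kinase A (PKA), which phosphorylates the transcription factor CREB, and CREB binds the cAMP response element (CRE) in the promoters of its target genes. In the epidermis, basal keratinocytes make the keratins Krt5 and Krt14, and on leaving the basal layer they switch to Krt1 and Krt10 and later to loricrin (Lor) and other proteins of the cornified envelope. TGF-beta signalling restrains the division of keratinocytes, and its inhibition is used to keep epithelial cells growing. Hox genes are transcription factor genes that lie in 4 clusters and mark the position of a cell along the body axis.

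The 4 libraries with forskolin and the inhibitor held 734041, 1863243, 2337596 and 1622134 counts, and the 2 with the inhibitor alone held 1101376 and 1206362, within a range of 412582 to 3351435 over the series. All 6 had the same gene list and so were taken as 1 source table. They were keratinocyte cultures by their transcripts: Krt5 had at least 10921 CPM (counts scaled to a common library total) and Krt14 at least 10315 CPM in each library. Markers of cells outside the epithelium were mostly low. Of 15 fibroblast markers 3 passed 10 CPM in any of the 6 libraries, the highest being Twist2 at 35.7 CPM, while Lum, Dpt and Pdgfrb were at 0. Summed over that list, levels were 32.4 to 52.7 CPM with forskolin and the inhibitor and 16.2 to 26.1 CPM with the inhibitor alone. Of 17 Langerhans and T cell markers 3 passed 10 CPM, led by Il2rg at 189 CPM, with Cd207 at 0. Their sum was 123 to 202 CPM with forskolin and the inhibitor and 72.3 to 106 CPM with the inhibitor alone. No melanocyte marker of 10 and no red blood cell marker of 6 reached that level. Markers of the hair follicle and its gland were present only in part. Of 18 genes of the upper follicle and sebaceous gland 9 passed 10 CPM, led by Defb6 at 181 CPM, while Mc5r, Elovl3 and Awat1 were at 0. Their sum was 350 to 574 CPM with forskolin and the inhibitor and 460 to 640 CPM with the inhibitor alone. Of 25 genes of hair matrix, root sheath and shaft 6 passed, led by Gata3 at 247 CPM, while the keratins Krt71, Krt72, Krt35 and Krt86 were at 0. Their sum over the list was 156 to 207 CPM with forskolin and the inhibitor and 283 to 338 CPM with the inhibitor alone. The part of these cells in the results below was not tested. In bulk libraries, fewer cells of a type and less RNA per cell cannot be told apart. Nothing in the labels tells whether the replicates are different mice or cultures, and a p-value here reflects the scatter among these libraries, part of which may be technical.

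Replicate 4 with forskolin and the inhibitor is given apart from replicates 1 to 3, because its Lor and Krt10 stood far above theirs. That choice used measured values, so a call made without replicate 4 is no independent evidence. Across the 9919 genes tested, replicate 4 correlated with the 2 inhibitor libraries at Pearson r of 0.952 and 0.956 (log2 CPM), and with replicates 1 to 3 at 0.905 to 0.941. Replicates 1 to 3 correlated with each other at 0.918 to 0.968 and with the inhibitor libraries at 0.876 to 0.917, and the 2 inhibitor libraries at 0.952. By this measure replicate 4 lay as near to the inhibitor libraries as these did to each other. These values are across genes, which share library depth and are not independent replicates.

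With all 4 libraries no gene passed an adjusted p of 0.05 in edgeR's quasi-likelihood test, 0% of 9919 in either direction. The smallest adjusted p was 0.0671. At an unadjusted p under 0.05 the same test gave 376 genes higher (3.79%) and 247 lower (2.49%), 6.28% together. DESeq2 called 24 genes, 16 higher and 8 lower, and edgeR on the 12 early libraries alone called 32 of 9184 (0.348%). The median log2 fold change of all genes was 0.02. Each gene was also asked whether its 4 values with forskolin and the inhibitor lay wholly above or below the 2 with the inhibitor alone: 1103 genes lay above (11.1%) and 1029 below (10.4%). These shares are the background for the gene lists. For 1 gene on its own, an exact permutation test of 4 against 2 libraries cannot give a two-sided p below 0.0667. Without replicate 4, 16 of 9803 genes passed the adjusted p (0.163%), of which 4 rose (0.0408%) and 12 fell (0.122%).

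The genes with the smallest p were Serpinh1, Hoxa5, Hoxc8 and Olfr1033. Serpinh1, which encodes a chaperone for collagen in the endoplasmic reticulum (chromosome 7, 99345376 to 99353239), had 2.46, 1.77, 2.08 and 1.30 CPM with forskolin and the inhibitor, against 38.0 and 31.2 CPM with the inhibitor alone. All 4 libraries, replicate 4 included, held a few counts and lay far below both inhibitor libraries. Its log2 fold change was -4.17 (SE 0.67, edgeR adjusted p = 0.0671), and without replicate 4 it passed at adjusted p = 0.0474. Olfr1033, annotated as an olfactory receptor gene (chromosome 2, 86020633 to 86045171), had 123, 160.5, 206 and 70.7 CPM, against 5.70 and 5.06 CPM with the inhibitor alone. The groups did not overlap, and replicate 4 was the lowest of the forskolin libraries. The log2 fold change was 4.68 (SE 0.85, edgeR adjusted p = 0.0762), and 4.90 without replicate 4 (adjusted p = 0.0453).

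The other genes that rose without replicate 4 were Hoxa5, described below with its cluster, the tetraspanin gene Tspan3 and Clec2f, which the annotation lists as a pseudogene. Tspan3 (chromosome 9, 56131725 to 56165477) had 1116, 1177, 1111 and 481 CPM with forskolin and the inhibitor, against 210.1 and 267 CPM with the inhibitor alone. Replicates 1 to 3 were close together, and replicate 4 lay between them and the inhibitor pair. The log2 fold change was 2.01 (SE 0.41) with all 4 and 2.25 (SE 0.38, edgeR adjusted p = 0.0453) without replicate 4. Wdr92, named after its values were seen as a highly expressed gene, had 13053, 12319, 15674 and 4781 CPM, against 781 and 1098 CPM (log2 fold change 3.60, SE 0.84, edgeR adjusted p = 0.203). It overlaps Ppp3r1 on its own strand and Pno1 on the other, and the use of strand in counting is not given in the sources used here, so the source of these counts is uncertain. Its groups did not overlap either.

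The 12 genes that fell without replicate 4 included Serpinh1, the glutathione transferase gene Gsta3, the cytochrome gene Cyp1b1, the lipid enzyme genes Acot1, Agpat4 and Aadac, the protease inhibitor gene Serpinb7, and Arhgap24, Srcin1, Tmem177 and Tmem229b. In most of them replicate 4 stood well above replicates 1 to 3. Serpinb7 had 2.46, 10.03 and 3.32 CPM in replicates 1 to 3 and 119 CPM in replicate 4, against 434 and 125 CPM with the inhibitor alone. Aadac had 1.23, 0.590 and 0.415 CPM in replicates 1 to 3 and 38.9 CPM in replicate 4, against 47.5 and 27.8 CPM. Replicate 4 thus lay just below the inhibitor pair for Serpinb7 and inside its range for Aadac. Gsta3 was low in all 4, at 1.23, 0, 0.415 and 3.89 CPM, against 48.5 and 27.0 CPM with the inhibitor alone, with a log2 fold change of -4.78 (SE 0.95, edgeR adjusted p = 0.119) with all 4 and -6.24 (SE 1.12, edgeR adjusted p = 0.0474) without replicate 4.

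Hox genes differed between the groups with replicate 4 on the side of the other forskolin libraries. Of 39 Hox genes 20 were tested. Their groups did not overlap for 5 higher and 9 lower genes, against 11.1% and 10.4% of all genes. The same counts of 5 and 9 held without replicate 4, against 17.9% and 17.2%. The 5 higher genes were all of the Hoxa cluster, of which 6 were tested, and included Hoxa3, Hoxa5, Hoxa7 and Hoxa9. The 9 lower ones were 5 of 8 tested Hoxb genes (Hoxb2, Hoxb3, Hoxb5, Hoxb8 and Hoxb9) and 4 of 6 tested Hoxc genes (Hoxc5, Hoxc6, Hoxc8 and Hoxc13). No Hoxd gene passed the filter. Summed over the list, levels were 255 to 299.6 CPM with forskolin and the inhibitor and 589 to 624 CPM with the inhibitor alone. The median log2 fold change was -0.61. It joins the higher Hoxa genes with the lower Hoxb and Hoxc genes, so it describes no single cluster. It also rested on 1 library, being -0.015 without the second inhibitor library and -0.77 without the first. It was -0.397 with the replicate block and 0 with no filter on low counts.

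Hoxa5, a gene of the middle of the Hoxa cluster (chromosome 6, 52201754 to 52204587, minus strand), had 54.0, 50.7, 49.4 and 61.6 CPM with forskolin and the inhibitor, against 3.80 and 5.06 CPM with the inhibitor alone. The 4 forskolin libraries were within a narrow range and replicate 4 was the highest. The means were 53.9 ± 5.45 CPM (SD, n = 4) and 4.43 ± 0.889 CPM (SD, n = 2), with a log2 fold change of 3.56 (SE 0.62, edgeR adjusted p = 0.0762). Without replicate 4 it was 3.50 (SE 0.64, edgeR adjusted p = 0.0474). The gene overlaps Hoxa3 and Gm28308 on its strand and Hoxaas3 on the other, so part of its counts could be theirs. Mira, a long noncoding RNA gene of the same cluster, had 40.5, 47.8, 57.3 and 44.1 CPM with forskolin and the inhibitor, against 0.951 and 6.75 CPM (log2 fold change 3.55, SE 0.70, edgeR adjusted p = 0.119). Its groups did not overlap, and replicate 4 lay among the others.

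Further Hoxa genes were low. Hoxa3 and Hoxa9 had no count with the inhibitor alone, where the floor of 3 counts over both libraries is 1.34 CPM. Against that floor Hoxa3, at 1.23 to 5.90 CPM with forskolin and the inhibitor, was at least 2.31-fold higher, and Hoxa9 at 1.18 to 2.59 CPM at least 1.39-fold higher. Hoxa7 had 2.91 to 8.60 CPM, against 0 and 0.843 CPM. With a few counts per library, the levels of these 3 genes carry a large counting error.

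Hoxc8 (chromosome 15, 102990607 to 102994111, plus strand) differed in the opposite direction to Hoxa5. It had 35.6, 18.3, 19.5 and 16.9 CPM with forskolin and the inhibitor, against 297 and 207 CPM with the inhibitor alone. Replicate 1 was the highest of the 4 and still far below both inhibitor libraries. The means were 22.6 ± 8.76 CPM (SD, n = 4) and 252 ± 63.0 CPM (SD, n = 2), with a log2 fold change of -3.52 (SE 0.63, edgeR adjusted p = 0.0762), and -3.40 without replicate 4 (adjusted p = 0.0592). Hoxc6, its neighbour in the cluster (chromosome 15, 102998257 to 103011881), had 11.1, 10.03, 11.2 and 13.6 CPM, against 59.9 and 83.5 CPM (log2 fold change -2.64, SE 0.68, edgeR adjusted p = 0.296). Both genes overlap Hoxc5, which had 66.7 to 87.5 CPM with forskolin and the inhibitor and 103 and 131 CPM with the inhibitor alone. Counts of the 3 genes may therefore be shared. In a fit of the 6 libraries alone, 5 of 8313 genes passed (0.0601%): Hoxa5, Hoxc6, Hoxc8, Olfr1033 and Serpinh1.

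Hoxc13, known in mouse for its role in hair and nails, had no count in any of the 4 forskolin libraries and 8.56 and 10.96 CPM with the inhibitor alone. Against the floor of 3 counts over the 4 libraries, 0.464 CPM, it was at least 21.2-fold lower. Hoxb9 had 0.415 CPM in replicate 3 and 0 in the others, against 2.85 and 13.5 CPM (log2 fold change -5.16, SE 1.05, edgeR adjusted p = 0.119). These genes had no or almost no counts in replicate 4, too. Hoxb7 and Hoxc4 had overlapping groups, with 9.72 to 17.9 CPM against 9.51 and 23.6 CPM for Hoxb7 and 20.3 to 40.2 CPM against 31.4 and 62.4 CPM for Hoxc4. Among positional genes outside the clusters, Pitx1, a transcription factor gene of the hind limb, had 65.1, 251, 227 and 432 CPM with forskolin and the inhibitor, against 43.7 and 47.2 CPM (log2 fold change 2.42, SE 0.71, edgeR adjusted p = 0.395). Replicate 4 was the highest.

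**Figure D1:**
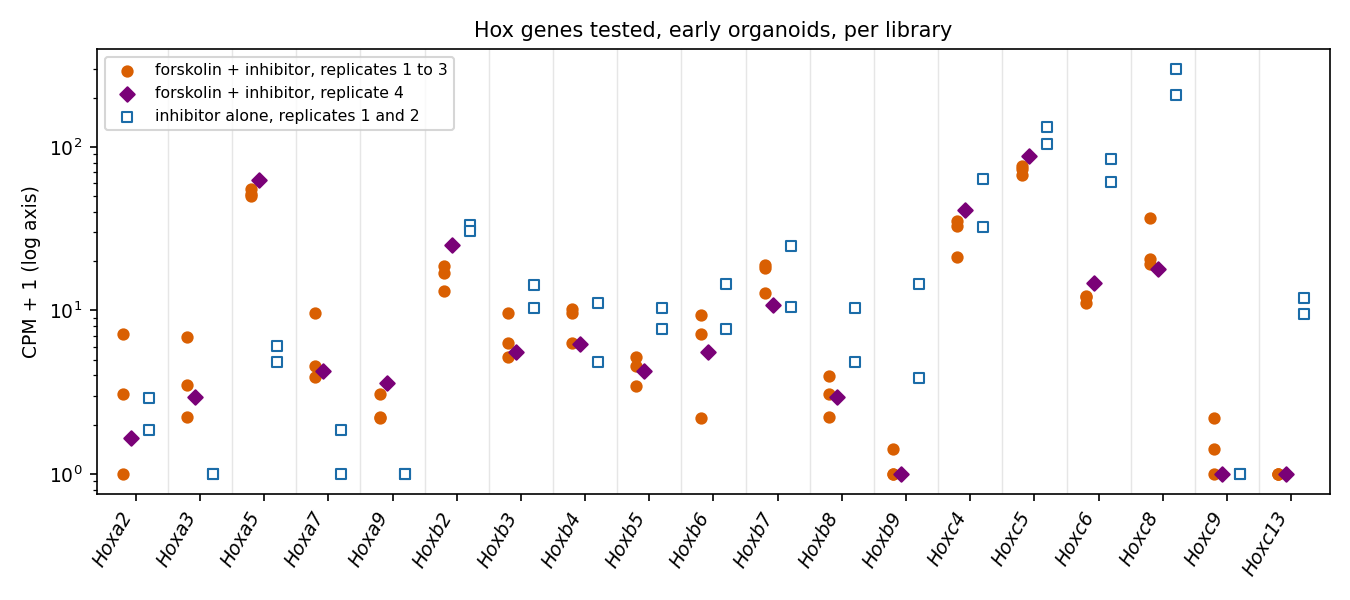
Levels of 19 of the 20 tested Hox genes in each early library, as CPM + 1 on a log axis. Filled circles are replicates 1 to 3 and diamonds replicate 4 with forskolin and the inhibitor, and open squares the 2 libraries with the inhibitor alone. Hoxa5 lies at 49.4 to 61.6 CPM against 3.80 and 5.06, Hoxc8 at 16.9 to 35.6 CPM against 207 and 297, and replicate 4 lies near replicates 1 to 3 for both.

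Early organoids with forskolin and a growth factor give values side by side, with no test here. Hoxa5 was at 33.3 to 50.8 CPM with forskolin and Fgf10 (4 libraries) and 59.7 to 87.6 CPM with forskolin and Fgf1 (2 libraries), near the 49.4 to 61.6 CPM with forskolin and the inhibitor. Hoxc8 was at 31.5 to 141 CPM with Fgf10 and 19.8 to 33.2 CPM with Fgf1. The 2 libraries with the inhibitor alone were outside these ranges for both genes, as the lowest for Hoxa5 and the highest for Hoxc8.

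Of 30 genes listed as targets of cAMP and CREB, 20 were tested. None passed the adjusted p, 4 were higher at an unadjusted p under 0.05 (against 3.79% of all genes) and none lower. The groups did not overlap for 7 higher genes and no lower one, against 11.1% and 10.4% of all genes. The median log2 fold change of the list was 1.35, against 0.02 over all genes. Leaving out replicate 4 gave 1.55, leaving out replicate 3 gave 0.82, and leaving out the second inhibitor library gave 1.84. Replicate 4 was below replicates 1 to 3 for 9 of the 20 and above them for 1. Over all 9919 genes tested it was below them for 2722 and above them for 2664. Of the enzymes, receptors and anchoring proteins of the pathway itself, 19 were tested, and 2 lay wholly higher and none lower, a share near the background, with a median of 0.15 that lay between 0.06 and 0.33 when 1 library was left out. Among these the catalytic subunit gene Prkaca had 65.1 to 93.9 CPM with forskolin and the inhibitor and 78.0 and 97.0 CPM with the inhibitor alone.

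Pde4b encodes a phosphodiesterase that breaks cAMP down, and is listed here as a target of CREB. It had 45.4, 40.1, 73.5 and 27.2 CPM with forskolin and the inhibitor, against 7.61 and 9.28 CPM with the inhibitor alone (log2 fold change 2.44, SE 0.69, edgeR adjusted p = 0.395). Dusp1, which encodes a phosphatase of MAP kinases, had 50.4, 35.4, 133 and 20.7 CPM, against 2.85 and 9.28 CPM (log2 fold change 3.26, SE 0.99, edgeR adjusted p = 0.454). For both genes the groups did not overlap and replicate 4 was the lowest of the 4. The prostaglandin synthase gene Ptgs2 had 20.9, 5.90, 29.9 and 6.48 CPM, against 1.90 and 2.53 CPM, without overlap. Among the remaining targets, Atf3 and Fos varied more between the forskolin libraries. Atf3, a stress-induced transcription factor gene, had 64.4 CPM in replicate 3 and 1.30 to 5.31 CPM in the others, against 1.90 and 0.843 CPM, and overlapped through replicate 4. Fos, a subunit of the transcription factor AP-1, had 68.8, 14.8, 222 and 15.6 CPM, against 12.4 and 10.1 CPM. Crem, the gene of the cAMP response modulator, had 2.46, 5.31, 8.31 and 3.24 CPM, against 1.90 and 0.843 CPM. Neither Fos nor Crem overlapped. For Crem, 2.46 CPM in replicate 1 and 1.90 CPM with the inhibitor alone rest on a few counts, so its separation carries a large counting error. For all 6 of these genes, from Pde4b to Crem, replicate 3 was the highest library. Sgk1, Sik1, Areg and Nr4a1 had overlapping groups.

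The promoters of 2 of these targets and of Hoxa5 are shown because the comparison adds an activator of the CREB pathway. Each sequence is the 250 bases before the start of the transcript in RefSeq (GRCm38.p6), in lower case, with capitals marking the short CRE, TGACG or its complement CGTCA, and the full CRE, TGACGTCA. Both strands were searched, and each full site also holds short sites on both strands. Only promoters with a short site were shown, so a match in each was fixed by that choice.
Hoxa5, chr6:52204588-52204837, minus strand: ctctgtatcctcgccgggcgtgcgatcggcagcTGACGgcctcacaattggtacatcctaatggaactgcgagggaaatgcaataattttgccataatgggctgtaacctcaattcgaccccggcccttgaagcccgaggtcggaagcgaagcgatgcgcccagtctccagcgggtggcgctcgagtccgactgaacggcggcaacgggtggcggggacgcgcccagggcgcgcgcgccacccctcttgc
Dusp1, chr17:26508473-26508722, minus strand: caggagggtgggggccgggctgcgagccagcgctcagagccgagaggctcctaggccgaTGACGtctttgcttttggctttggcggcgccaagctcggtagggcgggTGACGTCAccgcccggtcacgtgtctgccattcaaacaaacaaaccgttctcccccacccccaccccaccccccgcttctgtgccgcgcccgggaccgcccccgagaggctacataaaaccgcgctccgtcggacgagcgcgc
Pde4b, chr4:102421305-102421554, plus strand, the only one of its 4 listed promoters with a match: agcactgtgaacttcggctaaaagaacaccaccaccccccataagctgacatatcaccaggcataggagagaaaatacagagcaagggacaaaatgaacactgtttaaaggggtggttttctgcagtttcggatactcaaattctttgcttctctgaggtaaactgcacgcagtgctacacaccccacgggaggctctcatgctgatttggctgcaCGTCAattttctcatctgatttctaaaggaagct
The short site of Hoxa5 begins 217 bases before the start and that of Pde4b 34 bases before it. Dusp1 holds a full site in which short sites begin 143 and 140 bases before the start, and another short site at 191 bases. Over all 32851 listed promoters, 17.8% held a short site and 1.55% a full one. Of 42 promoters of the cAMP target list 45.2% held a short site and 7.14% a full one, and of 24 Hox promoters 29.2% held a short site and none a full one. A match to these letters is a description of the sequence and not a measured binding site.

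Genes of glucose use and hypoxia were higher with forskolin and the inhibitor for most of the members tested. Of 24 genes 23 were tested, 12 were higher at an unadjusted p under 0.05 (against 3.79% of all genes) and none was lower. The groups did not overlap for 16 higher genes and no lower one, against 11.1% and 10.4% of all genes, and for 17 and 0 without replicate 4, against 17.9% and 17.2%. No member passed the adjusted p. The median log2 fold change was 1.30, and 1.47 without replicate 4. Summed levels were 16445 to 35088 CPM with forskolin and the inhibitor and 10120 to 12226 CPM with the inhibitor alone. Replicate 4 was below replicates 1 to 3 for 13 of the 23 genes and above them for none. The counts over all 9919 genes tested were 2722 below and 2664 above.

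Bnip3, a receptor for the removal of mitochondria that hypoxia induces, had 90.9, 742, 388 and 114 CPM with forskolin and the inhibitor, against 24.7 and 27.8 CPM with the inhibitor alone (log2 fold change 3.66, SE 1.13, edgeR adjusted p = 0.463). Egln3, an oxygen-sensing prolyl hydroxylase gene, had 154, 2621, 1003 and 327 CPM, against 95.1 and 75.9 CPM (log2 fold change 3.58, SE 1.19, edgeR adjusted p = 0.546). Ndrg1 had 34.4, 762, 371 and 44.1 CPM, against 17.1 and 13.5 CPM. In all 3 genes replicate 2 was by far the highest and replicates 1 and 4 the lowest of the forskolin libraries, and all 4 lay above the inhibitor pair. The glucose transporter gene Slc2a1 varied less, at 111, 188, 152 and 66.8 CPM, against 41.8 and 38.0 CPM (log2 fold change 1.69, SE 0.55, edgeR adjusted p = 0.509). The glycolytic enzyme genes Pgk1 (987 to 2652 CPM, against 405 and 739.6 CPM) and Pkm (7484 to 13210 CPM, against 4457 and 6071 CPM) did not overlap. Ldha, the lactate dehydrogenase gene, had 742 to 2396 CPM, against 577 and 788 CPM, and overlapped through replicate 4. Vegfa, an angiogenic factor gene, had 28.5 to 102 CPM, against 14.3 and 20.2 CPM.

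**Figure D2:**
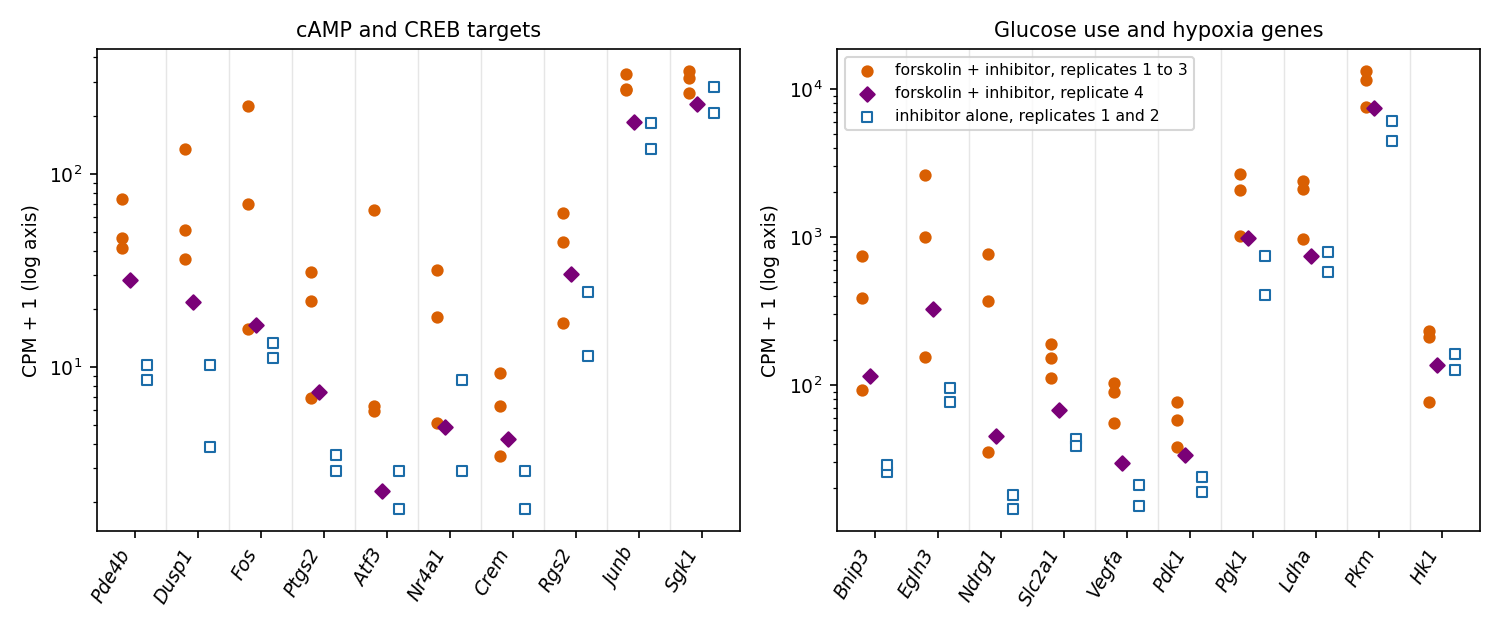
Levels of 10 cAMP and CREB targets (left) and 10 genes of glucose use and hypoxia (right) in each early library, as CPM + 1 on log axes. Filled circles are replicates 1 to 3 and diamonds replicate 4 with forskolin and the inhibitor, and open squares the 2 libraries with the inhibitor alone. Pde4b lies at 27.2 to 73.5 CPM against 7.61 and 9.28 and Bnip3 at 90.9 to 742 CPM against 24.7 and 27.8, with replicate 4 at the low side of the forskolin libraries in both.

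The genes of the spinous and cornified layers split the forskolin libraries. Of 38 genes 35 were tested. With all 4 libraries the groups did not overlap for 2 higher and 9 lower genes, against 11.1% and 10.4% of all genes. At an unadjusted p under 0.05, 2 were lower (against 2.49% of all genes). Without replicate 4 the groups did not overlap for 22 lower genes, against 17.2% of all genes, and for 2 higher ones, against 17.9%. Replicate 4 was set apart on genes of this list, so its effect on these counts is a description. The median log2 fold change was -0.84 with all 4 libraries, -1.46 without replicate 4 and -0.51 without replicate 1. Summed levels were 84775 CPM in replicate 4, 16036 to 72411 CPM in replicates 1 to 3, and 70658 and 90633 CPM with the inhibitor alone. Replicate 4 was above replicates 1 to 3 for 24 of the 35 genes and below them for none. Among all 9919 genes tested it was above them for 2664 and below them for 2722.

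Lor, the major protein gene of the cornified envelope (chromosome 3, 92080271 to 92083142), had 307, 443 and 375 CPM in replicates 1 to 3 and 6434 CPM in replicate 4, against 12474 and 5065 CPM with the inhibitor alone. Krt10 (chromosome 11, 99385254 to 99389364) had 289, 453 and 182 CPM in replicates 1 to 3 and 6353 CPM in replicate 4, against 8743 and 4183 CPM. For both genes replicates 1 to 3 were far below the inhibitor pair and replicate 4 lay inside its range. With all 4 libraries the log2 fold change was -2.21 for Lor (SE 1.67, edgeR adjusted p = 0.947), and without replicate 4 it was -4.55. Krt1, the partner keratin of Krt10, had 201, 366 and 221 CPM in replicates 1 to 3 and 5378 CPM in replicate 4, against 6723 and 3937 CPM. The late envelope gene Lce1c had 30.7, 44.3 and 34.5 CPM, 725 CPM in replicate 4, and 1939.5 and 762 CPM with the inhibitor alone.

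A few members were lower in replicate 4 as well. Involucrin, an early envelope protein (Ivl), had 29.5, 54.9, 35.7 and 154 CPM with forskolin and the inhibitor, against 319 and 216 CPM (log2 fold change -1.96, SE 0.62, edgeR adjusted p = 0.489). Flg2, a filaggrin-like gene, had 1.23, 3.54, 2.49 and 27.9 CPM, against 130.2 and 54.8 CPM (log2 fold change -3.35, SE 1.09, edgeR adjusted p = 0.528). In both, replicate 4 was the highest forskolin library and still below the inhibitor pair. Casp14, the protease gene of cornifying cells, had 716, 2043 and 828 CPM in replicates 1 to 3, and replicate 4 with 8180.0 CPM was above the inhibitor pair at 5402 and 5124 CPM. Sprr2d, a small proline-rich envelope gene, was higher in all 4, at 1329, 19184, 10410.0 and 4156 CPM, against 982 and 1018 CPM (log2 fold change 3.13, SE 1.56, edgeR adjusted p = 0.803). Tgm3, a transglutaminase gene, had overlapping groups.

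The basal keratins differed little between the groups. Krt5 had 13054, 11505, 11859 and 10921 CPM with forskolin and the inhibitor, against 14122 and 14629 CPM, and Krt14 had 10547 to 13748 CPM, against 10315 and 11739 CPM. Krt5 was lower without overlap with a log2 fold change of -0.29 (SE 0.37, edgeR adjusted p = 0.972). Of 22 tested basal and hemidesmosome genes 2 lay wholly higher and 1 lower, against 11.1% and 10.4% of all genes. Without replicate 4 the counts were 11 and 1, against 17.9% and 17.2%. Replicate 4 was below replicates 1 to 3 for 14 of the 22 genes and above them for none. For all 9919 genes tested these counts were 2722 and 2664. Itgb4, an integrin gene of hemidesmosomes, had 201, 173, 142 and 89.5 CPM, against 73.2 and 67.5 CPM. The laminin gene Lama3 had 151, 115 and 183 CPM in replicates 1 to 3 and 51.9 CPM in replicate 4, against 66.6 and 46.4 CPM, so that replicate 4 lay within the inhibitor range. The division marker Mki67 had 82.3 to 152 CPM, against 78.9 and 80.1 CPM, and replicate 4 was the lowest of the 4. Of 25 tested mitosis genes replicate 4 was below replicates 1 to 3 for 19, against 2722 of all 9919 genes.

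**Figure D3:**
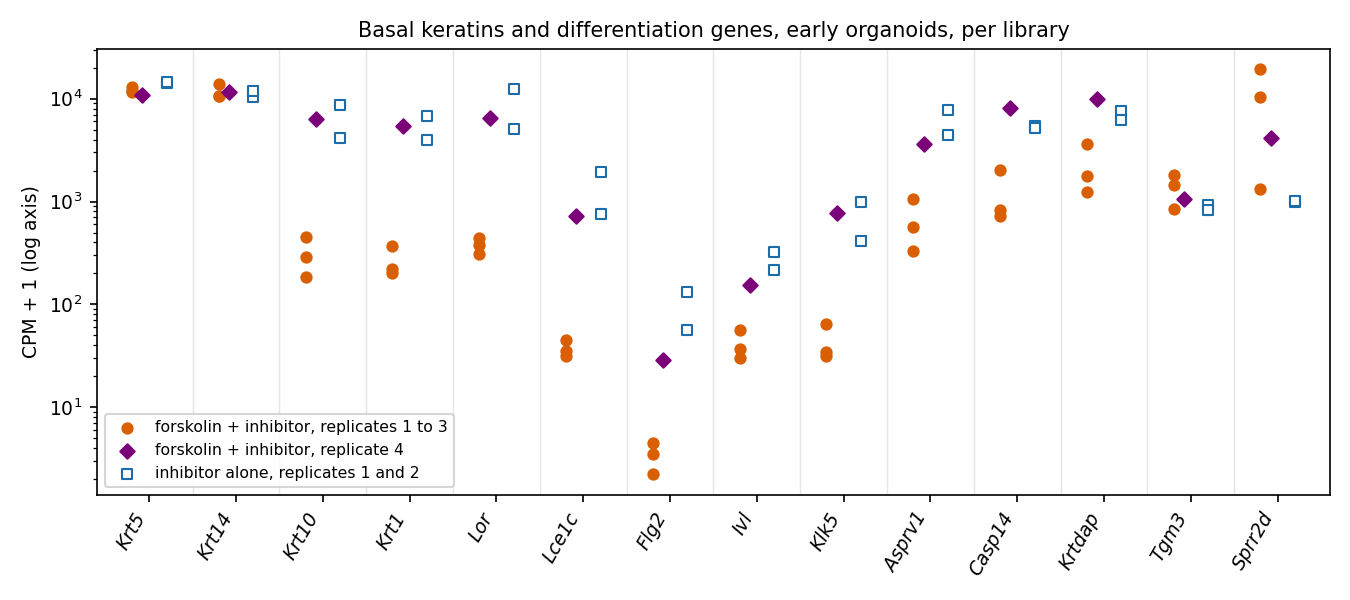
Levels of the basal keratins Krt5 and Krt14 and of 12 differentiation genes in each early library, as CPM + 1 on a log axis. Filled circles are replicates 1 to 3 and diamonds replicate 4 with forskolin and the inhibitor, and open squares the 2 libraries with the inhibitor alone. Krt5 stays between 10921 and 14629 CPM throughout, while Lor lies at 307 to 443 CPM in replicates 1 to 3 and at 6434 CPM in replicate 4, inside the inhibitor range of 5065 to 12474 CPM.

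The position of replicate 4 was measured on genes chosen from the other 5 libraries, those without overlap between replicates 1 to 3 and the inhibitor pair and at least 1 log2 unit apart. A position of 1 means the mean of replicates 1 to 3 and 0 that of the inhibitor pair. Of 556 genes higher in replicates 1 to 3, replicate 4 was nearer the inhibitor pair for 312 (56.1%), at a median position of 0.44. Of 512 genes lower in replicates 1 to 3 it was nearer the inhibitor pair for 401 (78.3%), at a median position of 0.22. Among these genes, 8 of 9 Hox genes had replicate 4 nearer replicates 1 to 3. Of 23 spinous and cornified genes 21 had it nearer the inhibitor pair, as had 7 of 7 basal and hemidesmosome genes. Glucose and hypoxia genes were divided, 8 of 16 each way. A library left out of such a choice of genes can lie nearer the inhibitor pair through the choice alone. No other forskolin library was placed in this way, so these shares and counts cannot be called particular to replicate 4. The spinous and cornified list holds Lor and Krt10, on which replicate 4 was set apart, so its count describes that choice and is no support for it.

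Counted by how often it was the highest or lowest of the 6 libraries, replicate 4 was not extreme over genes at large. Of 3154 genes with at least 50 CPM in replicate 4 or on average in replicates 1 to 3, it was the highest of the 6 libraries for 361 (11.4%) and the lowest for 388 (12.3%). For the other 5 libraries these shares were 12% to 22.3% and 12.5% to 26.9%. The highest shares were those of replicate 1, the library with the fewest counts. A library that lies between the others is seldom the highest or lowest. The shares therefore do not tell how far replicate 4 lay from the other libraries. Of the 361 genes the highest ratio to replicates 1 to 3 was that of Mt4, a metallothionein of stratified epithelium, at 398 CPM in replicate 4, 27.0 to 37.8 CPM in replicates 1 to 3, and 292 and 361 CPM with the inhibitor alone. The kallikrein gene Klk14 had 1329.5 CPM in replicate 4, 54.0 to 440.2 CPM in replicates 1 to 3, and 62.7 and 81.8 CPM with the inhibitor alone, so replicate 4 was the highest of the 6. Wfdc12, Chil1, Casp14, Aldh3a1, Adh7, Slc37a2, Dnase1l3 and Slc45a4 followed. Lower in replicate 4 than in the other 5 were Egr1, Itga3, Emp1, S100a4, Lmnb1, Marcksl1, Id3, Cald1, Jun and Ifi202b. The integrin gene Itga3 had 119 CPM in replicate 4, 392 to 651 CPM in replicates 1 to 3, and 209 and 121 CPM with the inhibitor alone.

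**Figure D4:**
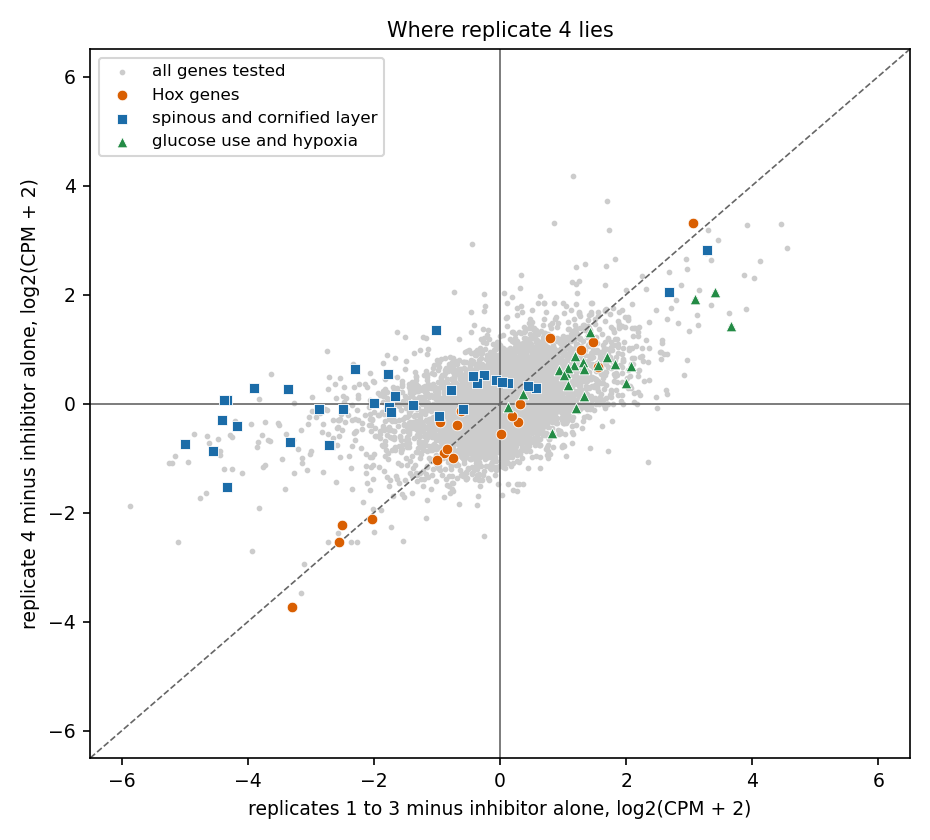
Difference of replicate 4 (vertical axis) and of the mean of replicates 1 to 3 (horizontal axis) from the mean of the 2 libraries with the inhibitor alone, in log2(CPM + 2), for the 9919 genes tested. Points on the dashed line differ equally. Hox genes (circles) that differ most lie near the dashed line, and spinous and cornified genes (squares) that are low in replicates 1 to 3 lie near 0 on the vertical axis, 21 of 23 nearer the inhibitor pair.

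Lists of signalling genes outside cAMP had medians nearer 0. With all 4 libraries 11.1% of all genes lay wholly higher and 10.4% lower. Of 16 tested genes of ERK feedback and EGFR ligands, 6 lay wholly higher and none lower, with a median log2 fold change of 0.59. Hbegf, an EGFR ligand gene, had 87.2, 79.1, 125 and 42.1 CPM with forskolin and the inhibitor, against 28.5 and 18.6 CPM (log2 fold change 1.82, SE 0.61, edgeR adjusted p = 0.546). Phlda1, from the same list, had 155, 187, 161 and 76.5 CPM, against 35.2 and 64.9 CPM. In both, replicate 4 was nearest to the inhibitor pair. Of 19 tested TGF-beta targets 5 lay wholly higher and 2 lower, with a median of 0.65, or 0.19 with genes that had no count in a group set to their bound. Without replicate 2 the median was 0.28 and without replicate 3 it was 0.20. Pmepa1, a feedback inhibitor of TGF-beta signalling, had 12.3, 31.3, 22.0 and 24.6 CPM, against 6.66 and 5.90 CPM. Of 11 tested BMP targets 1 lay wholly higher and 6 lower, with a median of -0.62. Without replicate 4 the counts were 3 and 6, against 17.9% and 17.2% of all genes, and the median was -0.37.

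Bmp2, the ligand gene, had 60.2, 50.2, 70.2 and 55.1 CPM with forskolin and the inhibitor, against 263 and 121 CPM (log2 fold change -1.71, SE 0.44, edgeR adjusted p = 0.291), with replicate 4 among the others. Msx2, a transcription factor gene that BMP induces, had 7.89 to 13.6 CPM, against 47.5 and 21.9 CPM. Id4 had 4.91, 2.36 and 3.74 CPM in replicates 1 to 3 and 44.7 CPM in replicate 4, against 115 and 54.0 CPM. Bmp2 and Msx2 thus placed replicate 4 with the other forskolin libraries, and Id4 placed it near the inhibitor pair. Of Wnt ligand genes, Wnt5a had 13.6 to 35.6 CPM, against 7.61 and 4.22 CPM, and Wnt3 had 0.415 to 6.48 CPM, against 10.5 and 20.2 CPM. Of 21 tested NRF2 targets, which include many detoxifying enzymes, 2 lay wholly higher and 10 lower, against 11.1% and 10.4% of all genes. Their median was -0.38. The glutathione transferase gene Gstm2 of that list had 30.3 to 165 CPM, against 492 and 320.5 CPM.

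Some cytokine and retinoid genes are named singly. Of 13 tested genes of retinoid metabolism and binding, 2 lay wholly higher and none lower, against 11.1% and 10.4% of all genes. The groups overlapped for the other 11. The neutrophil chemokine gene Cxcl3 had 395, 204, 344 and 65.5 CPM with forskolin and the inhibitor, against 12.4 and 27.0 CPM (log2 fold change 3.65, SE 1.05, edgeR adjusted p = 0.395), and its relative Cxcl2 had 31.8 to 192 CPM, against 4.75 and 2.53 CPM. Cxcl1 overlapped, through replicate 4 at 51.2 CPM. Tslp, a keratinocyte cytokine of allergic inflammation, had 361, 176, 176 and 185 CPM, against 796 and 1468 CPM (log2 fold change -2.35, SE 0.70, edgeR adjusted p = 0.427). The retinol receptor gene Stra6 had 258, 349, 516 and 129 CPM, against 41.8 and 82.7 CPM, and Cyp26b1, which degrades retinoic acid, had 104 to 268 CPM, against 51.3 and 90.2 CPM. None of the genes named here passed the adjusted p, and for all of them but Cxcl1 the groups did not overlap.

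The lists of other processes are given by their counts. Of 24 tested genes of cholesterol synthesis 2 lay wholly higher and none lower, and of 23 genes of barrier lipid synthesis 2 higher and 1 lower. Without replicate 4 these counts were 3 higher and 9 lower for cholesterol and 3 higher and 11 lower for barrier lipids, against 17.9% higher and 17.2% lower over all genes. Replicate 4 was above replicates 1 to 3 for 12 and 14 of these genes. Of 24 genes of the stress response of the endoplasmic reticulum 5 lay wholly higher and 2 lower. Replicate 4 was below replicates 1 to 3 for 15 of them. In all 9919 genes tested, replicate 4 was above replicates 1 to 3 for 2664 and below them for 2722. Of 18 Wnt pathway genes 3 lay wholly higher and 2 lower, of 16 YAP targets 3 and 2, of 15 Notch genes 1 and 1, of 27 DNA replication genes 1 and 0, and of 20 p53 targets and cell cycle inhibitors 0 and 3. With all 4 libraries the shares over all genes were 11.1% higher and 10.4% lower.

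**Figure D5:**
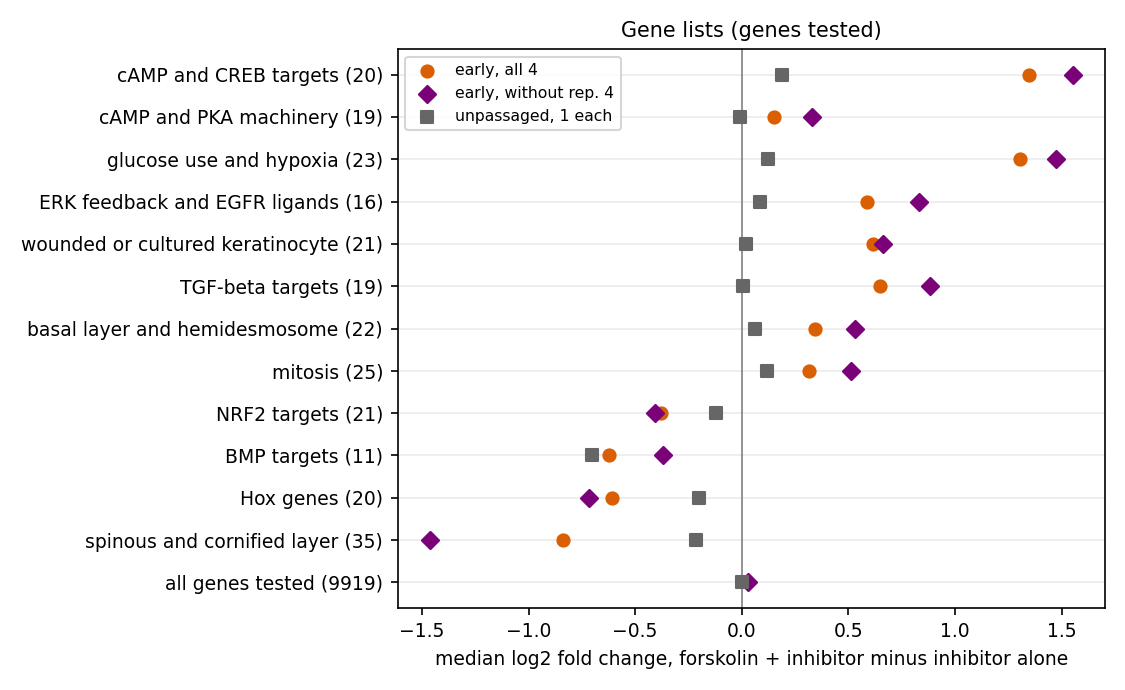
Median log2 fold change of forskolin and the inhibitor minus the inhibitor alone for 12 gene lists and for all genes tested, with the number of genes tested in brackets. Circles use all 4 early forskolin and inhibitor libraries, diamonds leave out replicate 4, and squares are the unpassaged pair of 1 library each. The cAMP targets (1.35) and the glucose and hypoxia genes (1.30) lie highest and the spinous and cornified genes (-0.84) lowest, and leaving out replicate 4 moves all 3 away from 0. The Hox median joins clusters that differed in opposite directions.

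In unpassaged organoids, where the comparison has 1 library a side and no replicate check, 299 of the 9919 genes were more than 2-fold higher with forskolin and the inhibitor (3.01%) and 394 lower (3.97%). Of the 376 genes higher in early organoids at an unadjusted p under 0.05, 51 were past 2-fold higher in the unpassaged pair (13.6%) and 6 past 2-fold lower. Of the 247 lower ones, 63 were past 2-fold lower (25.5%) and 1 past 2-fold higher. The shares were smaller for genes whose early groups did not overlap. Of the 1103 such genes that were higher, 68 were past 2-fold higher in the unpassaged pair (6.17%) and 23 past 2-fold lower. Of the 1029 that were lower, 103 were past 2-fold lower (10%) and 10 past 2-fold higher. Genes that shared the direction included Olfr1033, with 159.7 CPM with forskolin and the inhibitor and 37.2 CPM with the inhibitor alone, Tspan3 (1245 and 414 CPM) and Tslp (325 and 1936 CPM). Krt10 had 1074 CPM with forskolin and the inhibitor and 3868 CPM with the inhibitor alone, and Lor 358 and 1644 CPM.

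The Hox genes and the glucose genes had smaller ratios before passaging. In the unpassaged pair Hoxa5 had 48.7 CPM with forskolin and the inhibitor and 35.1 CPM with the inhibitor alone, and Hoxc8 had 42.1 and 98.0 CPM. The unpassaged inhibitor library thus had Hoxa5 far above the 3.80 and 5.06 CPM of the early inhibitor libraries. Bnip3 had 462 and 423 CPM, and the median log2 ratio of the glucose and hypoxia list was 0.125, against 1.30 in early organoids. For the cAMP targets it was 0.19, with 5 of 20 genes past 2-fold higher and 2 lower. Dusp1 was among the higher ones, at 44.7 and 6.94 CPM. Passage, age of the culture and library batch cannot be told apart between the unpassaged and the early pair, and the difference between them was not tested.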

How the data were processed

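The labels describe the libraries as RNA of bulk organoid cells, and their protocol has cells sorted into Trizol and sequenced by CEL-seq2, which counts the 3′ ends of transcripts, on a NextSeq500, per the labels. The authors deposited whole-number counts per gene and library. BWA 0.6.2-r126 and the mm10 build are named in the submitters' processing notes, and the sources used here do not name the counter, the annotation, the use of strand or how identifiers of single molecules were handled. A gene missing from a table was taken as 0 and spike-in rows were left out.

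edgeR 4.0.16 (R 4.3.3, limma 3.58.1) was fitted by quasi-likelihood to the 18 passaged organoid libraries, 5 groups with 13 residual degrees of freedom, without a replicate block. It used TMM scaling, a minimum count of 10 and a minimum total of 15, which left 9919 genes, and Benjamini-Hochberg adjustment at 0.05 over all of them. Alternatives included DESeq2 1.42.0. Printed CPM are TMM-scaled with the 2 unpassaged libraries added, which moved the relative scale by at most 1.26%. Ratios of the unpassaged pair used a prior count of 2, and bounds for genes with no count used a floor of 3 counts over the group. The positions of replicate 4 used log2(CPM + 2). Gene coordinates are from GENCODE M21, and the promoters from RefSeq. The fit was tested on simulated counts with known changes.

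The gene lists and members were chosen with earlier results of these data known. The rule for named genes took the 15 largest changes each way past the test, which were none, then up to 6 members of each described list that passed and 3 that did not, the Hox and cAMP genes, a fixed set of keratinocyte genes and, for replicate 4, the 10 genes each way with the largest ratio to replicates 1 to 3 among genes outside the range of the other 5 libraries. The genes with the smallest p and those called without replicate 4 were therefore chosen after their values were seen, as were members named beyond that rule. Some genes are not reported here.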

Additional observations from a re-analysis of the deposited data

Results flagged for a closer look

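Among 89 genes examined, 20 had 1 forskolin library far from the other 3, judged by its gap to the nearest divided by the range of the 4, against Dixon's critical value for 4 samples. For normally distributed values chance gives about 1 such group in 20. The ratio was taken on CPM without a log, and such values need not be normally distributed. Many of these genes were also chosen because replicate 4 differed in them or because they passed only without it. For both reasons the counts cannot be read against that share. Replicate 4 stood apart in 15 of them, replicate 1 in 3 and replicate 3 in 2. Replicate 4 was the highest for Lor (0.978), Krt10 (0.956), Krt1 (0.968), Flg2 (0.913), Lce1c (0.98) and Klk5 (0.956), all genes of differentiation. It was also the highest for Id4 (0.94), Gas1 (0.856), Aadac (0.979), Acot1 (0.969), Agpat4 (0.967), Cyp1b1 (0.873), Serpinb7 (0.935) and Srcin1 (0.918), and the lowest for Tspan3 (0.906). Replicate 1 was the highest for Hoxa7 (0.889), Hoxc8 (0.858) and Tslp (0.952), and replicate 3 for Hoxb9 (1.0) and Atf3 (0.936). Hoxb9 had 0.415 CPM in replicate 3 and no count in the other 3, which by itself makes the value 1.0.

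For 10 genes the unpassaged log2 ratio had the opposite sign to the early comparison, counted whatever its size. None of these ratios passed 2-fold, and several were near 0. With 1 library a side they do not show an opposite difference, and this was not tested. The unpassaged log2 ratio was below 0 for genes that were higher in early organoids, namely Hoxa7 (-0.07), Ptgs2 (-0.825), Fos (-0.942), Junb (-0.428), Egln3 (-0.138) and Stra6 (-0.561). It was above 0 for Eif2s3y (0.004), Cyp1b1 (0.498), Srcin1 (0.085) and Tmem229b (0.083), which were lower in early organoids.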

How the results depend on the processing

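The call of no gene with all 4 libraries held under RLE and upper-quartile scaling, a minimum count of 30 and thinning to equal depth. Calls were made without the filter (19 genes, 4 of them list members), by DESeq2 (24 and 5), with the 6 libraries alone (5 and 3), with the 12 early libraries (32 and 6) and with the replicate block (33 and 2). The cause was not tested. The labels pair nothing beyond the number, and the deviations of same-numbered libraries correlated at -0.115 and -0.024. Leaving out 1 library at a time gave 0 to 16 genes and 0 to 1 list members, 16 and 1 only without replicate 4. The 6 libraries alone without replicate 4, chosen after seeing the data, gave 381 genes and 65 list members. Genes without overlap then numbered 1780 higher and 1706 lower, from fewer libraries compared. A prior count of 10 left 209 genes past 2-fold in the unpassaged pair. Of the log2 fold changes of named genes, 1264 values kept direction and side, 122 passed the test only under the alternative and 9 changed sign. Under the replicate block the log2 fold change of Tgm3 was -0.021 and that of Hoxb7 was 0.16. Leaving out 1 library gave ranges of -0.76 to 0.56 for Hoxb7, -0.997 to 0.008 for Hoxc4, -0.22 to 0.11 for Prkaca, -0.026 to 0.174 for Krt14 and -0.372 to 0.038 for Ddx3y. With 2 inhibitor libraries and a smallest forskolin library of 734041 counts, levels of genes with a few counts carry a large counting error.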
